A study of Mus musculus with 8 samples.

Results

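The genes described here are 10 transcripts tied to cholesterol efflux and to the liver X receptors (LXR) in primary mouse macrophages: Abcg1, Abca1, Abca7, Apoe, Nr1h2, Nr1h3, Mylip, Arl4c, Smpdl3a and Srebf1. They were taken as a named list from the 24421 gene symbols that each library reports, and all 10 were present and passed the filter on low counts. RNA from macrophages was sequenced in 8 libraries, which the labels place in 3 genotypes, all on a normal diet. WT has 3 libraries, LysM-DKO has 3 and ABCG1KO has 2. LysM-DKO was taken to be the epsin double knockout that the design text of the series names. The name LysM usually stands for Cre driven by the lysozyme gene Lyz2, which acts in myeloid cells and can leave part of the target alleles intact. The labels give no strain, age, sex or tissue of origin, and do not say whether WT cells carried Cre, whether animals were pooled, or whether the Abcg1 deletion was limited to a cell type. The libraries of a group are labelled as replicates without saying that they came from separate animals, so p-values measure the spread between these libraries, which may be technical.

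LXRα (Nr1h3) and LXRβ (Nr1h2) are nuclear receptors that bind DNA with a retinoid X receptor partner and are activated by oxysterols and by desmosterol, sterols that accumulate when a cell is loaded with cholesterol. In macrophages they raise transcription of the transporters Abca1, which loads lipid-poor apolipoprotein A-I, and Abcg1, which delivers sterol to mature high-density lipoprotein. They also raise Apoe, a secreted acceptor of cholesterol, Mylip (IDOL), the ubiquitin ligase that sends the LDL receptor to degradation, Arl4c, a small GTPase of cholesterol transport, Smpdl3a, a secreted phosphodiesterase, and Srebf1, whose SREBP-1c product drives fatty acid synthesis. Abca7 is a relative of Abca1 that moves phospholipid and is usually grouped with SREBP2 rather than with LXR.

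LXR and its partner bind a direct repeat with 4 spacer bases, so the promoters of the members that the results turn on are printed first. RefSeq promoters on build GRCm38.p6 were matched for 8 of the 10 members (Abcg1 and Smpdl3a were not matched), which gave 13 windows of 250 bases before an annotated start. The letters GGTTANNNNNGGTCA and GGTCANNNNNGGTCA were searched on both strands, with the first base of each repeat left free. These patterns cannot lie on the same bases. A match was found in 2 of the 13 windows, in Abca1 and in Srebf1, and either pattern occurred in 0.11% of all 32851 promoter windows of that length. Capitals mark the match, which reads GGTTACTACCGGTCA in Abca1 (bases 67 to 53 before the start) and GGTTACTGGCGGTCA in Srebf1 (bases 182 to 168), both on the opposite strand. The windows of Mylip and Arl4c are shown because these transcripts rose where Abcg1 was lost, and they hold no match, which says only that these letters are not in these windows. The Abca1 window lies at chr4:53159896-53160145 (minus strand), that of Srebf1 at chr11:60210472-60210721 (minus strand, at a start inside the gene), that of Mylip at chr13:45389492-45389741 (plus strand) and that of Arl4c at chr1:88702192-88702441 (minus strand).
Abca1: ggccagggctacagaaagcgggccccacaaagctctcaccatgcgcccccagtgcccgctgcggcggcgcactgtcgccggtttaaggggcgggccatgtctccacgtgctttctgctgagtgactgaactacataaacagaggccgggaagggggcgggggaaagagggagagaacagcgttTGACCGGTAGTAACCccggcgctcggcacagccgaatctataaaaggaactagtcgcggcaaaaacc
Srebf1: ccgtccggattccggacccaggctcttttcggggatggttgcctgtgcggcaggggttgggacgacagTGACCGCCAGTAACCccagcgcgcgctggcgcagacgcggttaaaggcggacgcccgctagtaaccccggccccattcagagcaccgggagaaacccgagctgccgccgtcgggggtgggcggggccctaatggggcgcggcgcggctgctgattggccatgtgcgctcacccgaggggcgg
Mylip: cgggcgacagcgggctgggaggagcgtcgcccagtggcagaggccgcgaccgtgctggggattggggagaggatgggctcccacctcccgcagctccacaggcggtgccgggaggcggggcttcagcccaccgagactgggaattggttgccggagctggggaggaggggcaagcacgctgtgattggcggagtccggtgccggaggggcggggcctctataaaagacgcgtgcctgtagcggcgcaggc
Arl4c: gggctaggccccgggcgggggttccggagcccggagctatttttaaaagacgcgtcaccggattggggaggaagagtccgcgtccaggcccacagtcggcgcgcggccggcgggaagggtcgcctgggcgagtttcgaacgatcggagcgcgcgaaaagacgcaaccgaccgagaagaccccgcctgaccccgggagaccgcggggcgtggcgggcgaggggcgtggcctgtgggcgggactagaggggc

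The libraries held between 29567615 and 41888516 counts in genes, and the lowest count of any member in any library was 1080, for Mylip in WT 3. All 7 macrophage markers on the list used, among them Adgre1, Csf1r and Cd68, were above 3 counts in every library. Epn1, which encodes epsin 1, was at 208 CPM (counts relative to the TMM-scaled library size) in WT and 169 in LysM-DKO, and this difference (log2 fold change -0.30, edgeR adjusted p 0.430) was not past the threshold. Epn2, which encodes epsin 2, was at 7.34 CPM in WT and 8.40 in LysM-DKO (log2 fold change 0.20, edgeR adjusted p 0.852). The counts of Epn1 and Epn2 therefore do not show a loss that checks the label. Lyz2 was at 14620 CPM in WT (13004 to 15710) and 6849 in LysM-DKO (6177 to 8105). Its groups did not overlap, as in 21.0% of all genes in that comparison. The log2 fold change of Lyz2 was -1.09 (edgeR adjusted p 0.173), not past the threshold, and its cause was not tested. The ABCG1KO libraries stand apart from the other 6 in technical measures, for a reason that the labels do not give. Reads outside genes made up 13.8% and 10.2% there against 4.26% to 6.07%. Gapdh, whose sequence is shared with pseudogenes, was at 4.99 and 2.05 CPM there against 731 to 1705. Of the members' transcript sequence, cut into words of 50 bases, 0% to 1.33% was shared with another gene. Xist and Ddx3y also split the libraries by sex, with a female pattern in all 3 WT libraries and in LysM-DKO 2 and 3, and a male pattern in LysM-DKO 1 and both ABCG1KO libraries. Genotype, sex and this unexplained difference between libraries therefore cannot be told apart where ABCG1KO is compared with WT. Where LysM-DKO is compared with ABCG1KO, genotype and the same difference between libraries cannot be told apart either.

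Levels of the 10 transcripts were compared with each other as FPKM, which divides CPM by the length of all annotated exons in kilobases. In WT, Apoe stood far above the rest at 6342 ± 1175 FPKM (SD, n = 3), followed by Smpdl3a at 189 ± 14.1 and Abcg1 at 52.7 ± 4.74. The receptors and Abca1 came next, with Nr1h2 at 35.7 ± 0.400, Nr1h3 at 33.2 ± 6.90 and Abca1 at 28.8 ± 14.7 FPKM. These 3 ranges overlapped, so that their order is not resolved, and the range of Abca1 (18.8 to 45.6) also touched that of Srebf1 (13.4 to 19.4). Mylip, at 10.04 ± 1.24 FPKM, and Arl4c, at 9.81 ± 1.43, could not be ordered either, and Abca7 was lowest at 5.43 ± 0.703.

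In ABCG1KO the order was different in the middle of the list. Abca1, at 67.4 ± 12.8 FPKM (SD, n = 2), came next after Apoe (10870 ± 3526) and Smpdl3a (236 ± 35.4). Arl4c followed at 42.2 ± 12.2 and Mylip at 37.2 ± 8.57, with ranges that overlapped each other and lay above both receptors. Nr1h2 was at 27.6 ± 2.11, Nr1h3 at 22.3 ± 0.255 and Srebf1 at 17.6 ± 1.83 FPKM. Abcg1 fell to 9.17 ± 1.25 FPKM, where its range overlapped that of Abca7 at 7.05 ± 2.37. In LysM-DKO the order was close to that of WT, with Abcg1 at 47.4 ± 22.1 FPKM (SD, n = 3) and Arl4c at 23.4 ± 5.29, above Mylip at 15.7 ± 5.91.

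**Figure D1:**
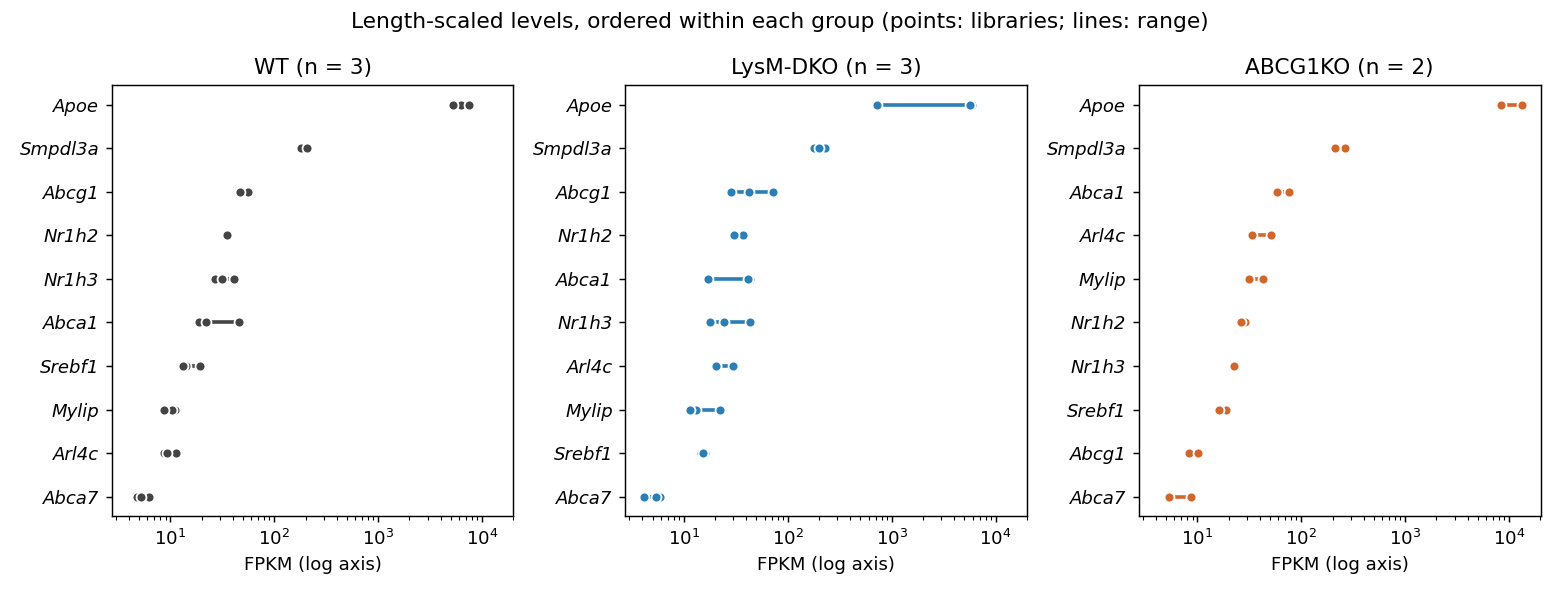
Length-scaled levels (FPKM, logarithmic axis) of the 10 transcripts in WT (n = 3), LysM-DKO (n = 3) and ABCG1KO (n = 2), ordered by group mean; points are libraries and lines span their range. Abcg1 is next after Smpdl3a in WT and in LysM-DKO and next to last in ABCG1KO, where Abca1 takes its place in the order.

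The comparison of ABCG1KO with WT asks whether other LXR targets are higher where Abcg1 is lost. Of the 10 members, Mylip and Arl4c rose and Abcg1 fell, while the other 7 were not past the threshold (edgeR, Benjamini-Hochberg adjusted p under 0.05). These 3 calls among 10 stand beside 16.0% of all 13821 genes called in this comparison, 7.21% higher and 8.83% lower. In 8 of the 10 members the ABCG1KO libraries did not overlap WT (5 higher, 3 lower), beside 48.2% of all genes (23.9% higher, 24.2% lower). The median log2 fold change of the 9 members other than Abcg1 was 0.38, and that of all genes was 0.01. These 9 include both receptors and Abca7, so this median does not describe the LXR targets alone. The targets Abca1, Apoe, Mylip, Arl4c, Smpdl3a and Srebf1 each had a positive log2 fold change, as did Abca7, and both receptors had a negative value. Among these targets only Mylip and Arl4c were called. The list is short, and nothing particular to it follows from these counts.

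Abcg1, on chromosome 17 (31057675 to 31117988, plus strand; these and the gene positions below are from GENCODE M21 on GRCm38), checks the label of the knockout. It was at 405, 404 and 345 CPM in WT 1, 2 and 3 and at 60.4 and 73.4 CPM in ABCG1KO 1 and 2. The knockout libraries lay below every WT library, and 1927 and 3111 counts remained in them. The log2 fold change was -2.52 (edgeR adjusted p 0.00414, SE 0.372), which leaves 17.4% of the WT level. Counts over the whole gene do not show which exons these reads came from.

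Abca1, the partner transporter (chromosome 4, 53030787 to 53159895, minus strand), was at 195, 473 and 228 CPM in WT, against 604 and 792 CPM in ABCG1KO. Both knockout libraries were above all 3 WT libraries, but WT 2 alone was more than 2 times WT 1. The log2 fold change was 1.23 (SE 0.473, 95% interval 0.14 to 2.32) and was not past the threshold with edgeR (adjusted p 0.120). With DESeq2 it was, at a log2 fold change of 1.24 and an adjusted p of 0.0300. Leaving out WT 2 gave 1.72 (edgeR adjusted p 0.0528) and leaving out WT 1 gave 0.99 (0.258).

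The balance between both transporters was described by the ratio of their FPKM within a library. Abca1 was at 0.338, 0.824 and 0.465 times Abcg1 in WT and at 7.04 and 7.60 times Abcg1 in ABCG1KO. Abcg1 is the deleted gene, so this ratio rises in ABCG1KO even where Abca1 is unchanged, and it is no evidence of a change in Abca1. Added together, Abca1 and Abcg1 came to 74.3, 101 and 69.2 FPKM in WT and to 66.6 and 86.5 FPKM in ABCG1KO, so these sums overlapped. The sums in ABCG1KO include the reads left at the deleted gene, and whether these make working transporter was not tested. Abca7 (chromosome 10, 79996494 to 80015572) was at 32.5, 41.8 and 35.6 CPM in WT and at 58.9 and 36.3 CPM in ABCG1KO. Its groups overlapped, and the log2 fold change was 0.38 (95% interval -0.17 to 0.92, edgeR adjusted p 0.321).

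Apoe, the secreted acceptor (chromosome 7, 19696109 to 19699188), was at 13465, 11095 and 16117 CPM in WT and at 17911 and 28572 CPM in ABCG1KO. Both knockout libraries were above WT, yet they differed from each other by more than the distance of ABCG1KO 1 from WT 3. The log2 fold change of 0.78 had a 95% interval from -0.88 to 2.44 (edgeR adjusted p 0.500). In this joint fit the spread of Apoe includes 1 LysM-DKO library at 1548 CPM, and without that library the value was still 0.78, with an edgeR adjusted p of 0.0958.

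Neither receptor was past the threshold. Nr1h2 (LXRβ, chromosome 7, 44549616 to 44553951) was at 119, 121 and 119 CPM in WT and at 97.5 and 87.5 CPM in ABCG1KO, with no overlap. Its log2 fold change was -0.37 (edgeR adjusted p 0.0990, SE 0.135). Nr1h3 (LXRα, chromosome 2, 91184061 to 91202834) was at 103, 68.4 and 79.8 CPM in WT and at 55.5 and 56.4 CPM in ABCG1KO. The knockout libraries were again below WT, and the log2 fold change was -0.58 (95% interval -1.38 to 0.22, edgeR adjusted p 0.293). The ratio of Nr1h2 to Nr1h3 in FPKM was 0.871 to 1.33 in WT and 1.32 and 1.16 in ABCG1KO.

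Mylip and Arl4c were the members that rose. Mylip (chromosome 13, 45389742 to 45412022, plus strand) was at 35.6, 33.9 and 27.95 CPM in WT and at 101 and 140 CPM in ABCG1KO. Even the lower knockout library was well above the highest WT library. The log2 fold change was 1.89 (edgeR adjusted p 0.00468, SE 0.287), or 3.70-fold. Arl4c (chromosome 1, 88673125 to 88702221, minus strand) was at 47.4, 62.6 and 51.6 CPM in WT and at 279 and 185 CPM in ABCG1KO. These groups were also far apart, with a log2 fold change of 2.11 (edgeR adjusted p 0.00112, SE 0.240), or 4.30-fold. The calls of Abcg1, Mylip and Arl4c held under every other scaling, filter, tool and left-out library that was tried.

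The remaining targets, Smpdl3a and Srebf1, were not past the threshold. Smpdl3a (chromosome 10, 57794335 to 57811830) was at 372, 373 and 423 CPM in WT and at 539 and 436 CPM in ABCG1KO, a log2 fold change of 0.32 (95% interval -0.06 to 0.71, edgeR adjusted p 0.231). Srebf1 (chromosome 11, 60199089 to 60222581) was at 109, 80.3 and 75.3 CPM in WT and at 106 and 91.7 CPM in ABCG1KO. Its groups overlapped, and the log2 fold change was 0.17 (95% interval -0.24 to 0.57, edgeR adjusted p 0.560). The exons of Srebf1 overlap those of Rai1 on the opposite strand over 109 bases, 1.94% of its exon length, and whether the counting used strand is not given in the sources used here.

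**Figure D2:**
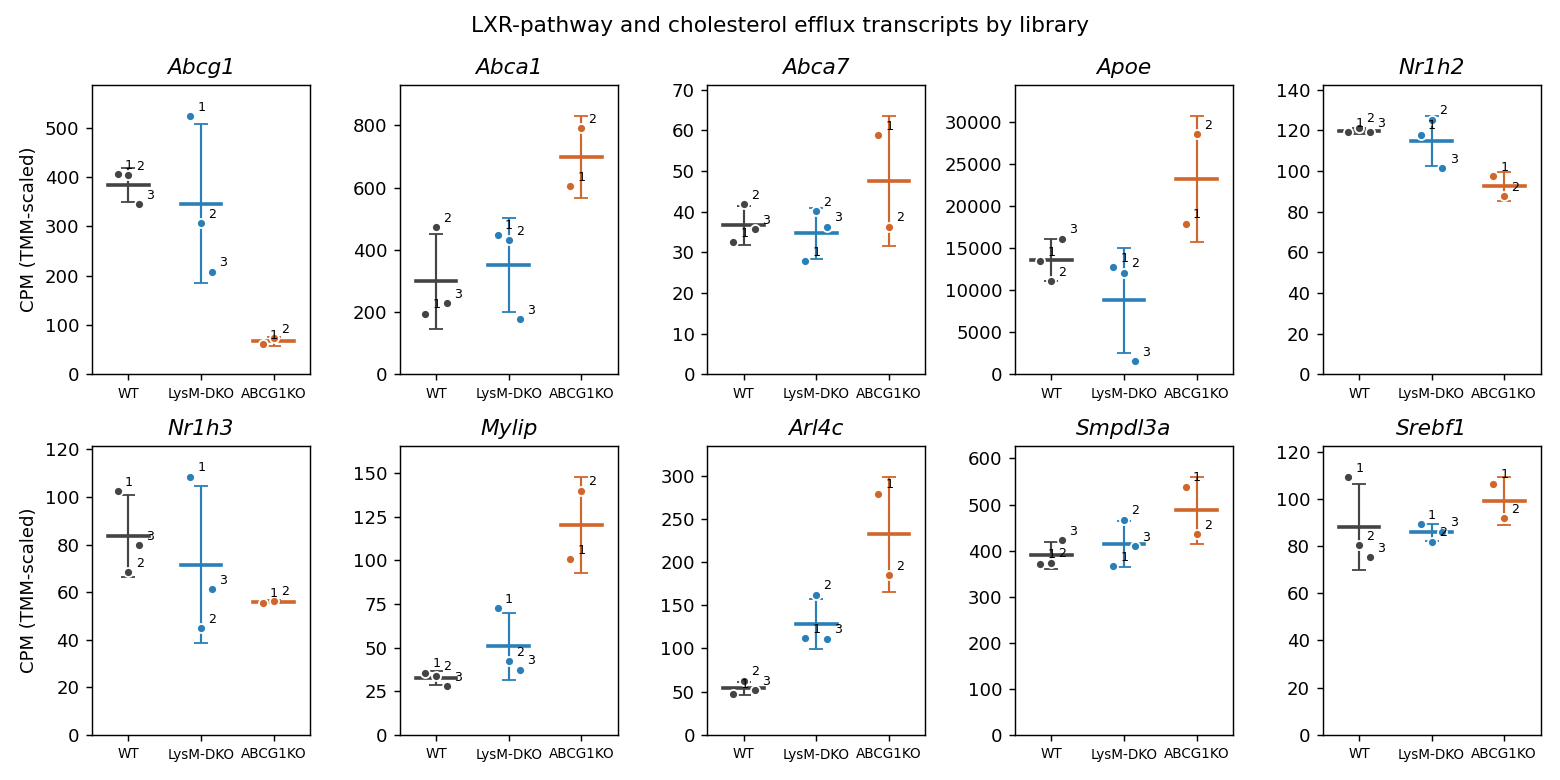
CPM of each of the 10 transcripts in every library (points, with replicate numbers), with the group mean (line) and SD (bars) for WT (n = 3), LysM-DKO (n = 3) and ABCG1KO (n = 2); each panel starts at 0 and has its own scale. Abcg1 is near the axis in ABCG1KO (60.4 and 73.4), Mylip and Arl4c are above every WT library in both knockouts, and Apoe has 1 low LysM-DKO library (1548).

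Marker lists of other cells were summed in each library, and for 4 of 9 lists both ABCG1KO libraries lay above the other 6. The summed level of 8 markers of resident peritoneal macrophages was 1789 and 292 CPM in ABCG1KO 1 and 2. It was 13.5 to 57.1 CPM in WT and 3.71 to 45.4 CPM in LysM-DKO, and all 8 were above 3 counts in ABCG1KO. The largest parts of the sum in ABCG1KO 1 and 2 were Alox15 (884 and 135 CPM), Prg4 (500 and 60.7) and F5 (267 and 36.2). Not all 8 were higher: Selp (32.6 and 5.33 CPM in ABCG1KO, 0.543 to 16.2 in WT) and Garnl3 (5.11 and 2.12, 0.938 to 2.71) overlapped WT. Gata6, the defining factor of these cells, was at 28.7 and 32.6 CPM in ABCG1KO, 7.04 to 17.0 in WT and 1.99 to 27.99 in LysM-DKO, while Timd4 had 0 counts in WT 3 and LysM-DKO 1. The 5 monocyte markers summed to 44.0 to 159 CPM in ABCG1KO and 2.30 to 14.0 CPM in WT, and the 6 mast cell markers to 7.95 to 47.2 against 0.181 to 3.15. The 5 neutrophil markers summed to 206 to 353 CPM against 89.3 to 134, which was nearly all Csf3r (348 and 204 CPM in ABCG1KO, 84.3 to 131 in WT), a receptor that monocytes and macrophages can also express. S100a8 overlapped WT, Cxcr2 was at 2 and 4 counts in ABCG1KO, S100a9 was at 5 and 6, and Retnlg was at 0 in every library. Sums for B cells (2.64 to 15.1 CPM in ABCG1KO, 2.51 to 30.3 in WT), T cells (0.425 to 0.815, 0.336 to 2.90), dendritic cells (3.23 to 7.27, 1.26 to 7.57), fibroblasts (160 to 1185, 753 to 911) and mesothelial cells (6.15 to 23.1, 7.61 to 43.8) overlapped. The part of these markers in the changes of Mylip and Arl4c was not tested. In such bulk RNA, fewer cells of a type and less RNA per cell cannot be told apart.

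In LysM-DKO, no member passed the threshold against WT. With edgeR, 0 of 10 were called, beside 0.0362% of all genes (5 of 13821), and 2 of 10, Arl4c and Mylip, had an unadjusted p under 0.05, beside 11.7% of all genes. DESeq2 called 1 member, Arl4c. Those same 2 members were the ones whose LysM-DKO libraries did not overlap WT, both higher, beside 21.0% of all genes (11.0% higher, 9.98% lower). The median log2 fold change of the 10 members was -0.05, and that of all genes was 0.02.

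Arl4c was at 112, 162 and 111 CPM in LysM-DKO 1, 2 and 3, above all WT libraries (47.4 to 62.6). The log2 fold change was 1.25 (SE 0.219, 95% interval 0.75 to 1.76), or 2.38-fold. It had an adjusted p of 0.160 with edgeR and 5.14e-05 with DESeq2. Mylip was at 72.6, 42.1 and 37.4 CPM, and the lowest of these was close to the highest WT value of 35.6. Its log2 fold change was 0.64 (edgeR adjusted p 0.409, SE 0.261), and without LysM-DKO 1 it was 0.28.

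Abcg1 differed widely among the LysM-DKO libraries, at 524, 306 and 208 CPM, and so fell on both sides of WT (345 to 405). The log2 fold change was -0.15, with a 95% interval from -0.84 to 0.53 (edgeR adjusted p 0.861). Without LysM-DKO 1 it was -0.60, and without LysM-DKO 3 it was 0.11, so no direction can be given. Abca1 was at 448, 430 and 177 CPM, again on both sides of the middle WT value, with a log2 fold change of 0.24 (95% interval -0.75 to 1.23, edgeR adjusted p 0.848). The ratio of Abca1 to Abcg1 in FPKM was 0.603, 0.990 and 0.599, which overlapped the WT range of 0.338 to 0.824.

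Apoe was at 12730 and 12082 CPM in LysM-DKO 1 and 2, inside the WT range, and at 1548 CPM in LysM-DKO 3. With all 3 libraries the log2 fold change was -0.63 (edgeR adjusted p 0.714, SE 0.652), and without LysM-DKO 3 it was -0.13. Apoc1, the neighbouring apolipoprotein gene, had 7, 8 and 0 counts in LysM-DKO 1, 2 and 3, and 1, 4 and 5 counts in WT. The other 5 members stayed near WT: Nr1h2 had a log2 fold change of -0.06, Nr1h3 of -0.23, Abca7 of -0.08, Smpdl3a of 0.09 and Srebf1 of -0.04, with edgeR adjusted p between 0.790 and 0.936. The widest 95% interval among these 5 was that of Nr1h3, from -0.93 to 0.48.

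**Figure D3:**
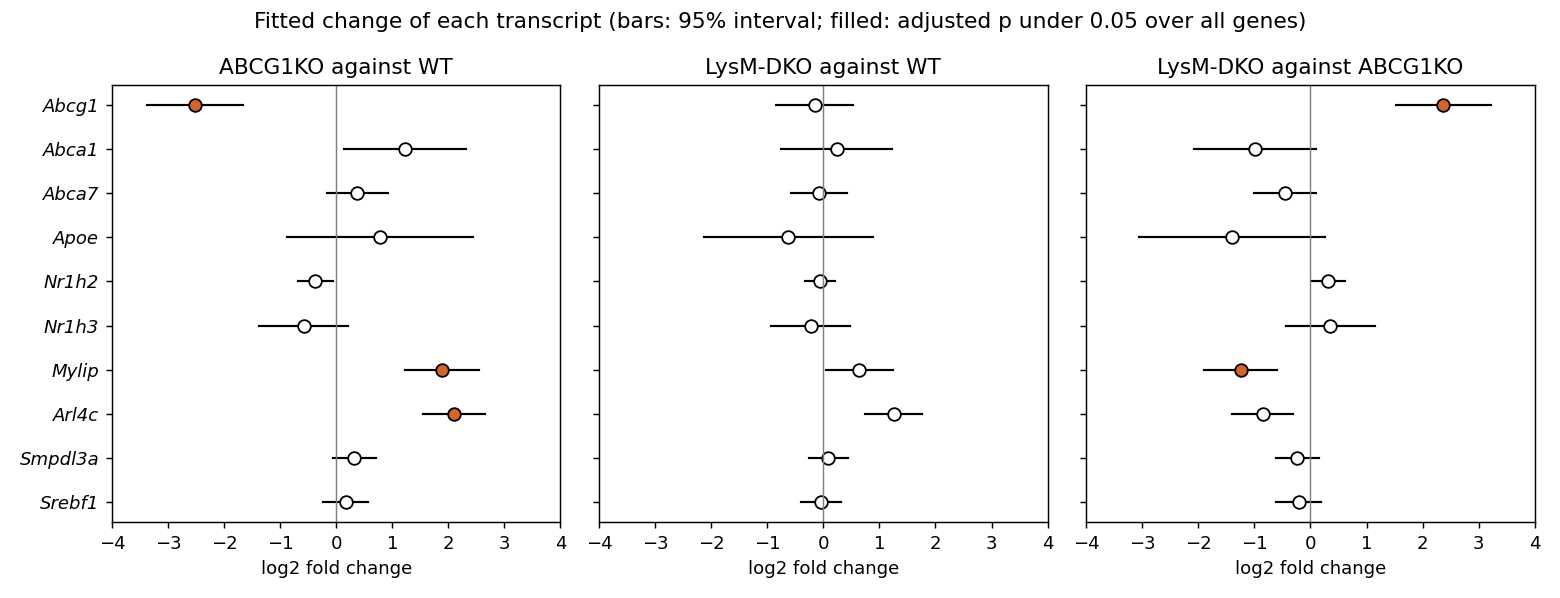
Fitted log2 fold change of each transcript with its 95% interval in ABCG1KO against WT, LysM-DKO against WT and LysM-DKO against ABCG1KO; filled points have an edgeR adjusted p under 0.05 over all 13821 genes. Filled are Abcg1, Mylip and Arl4c in the first panel, none in the second, and Abcg1 and Mylip in the third.

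Setting both knockouts against each other, 2 of the 10 members were called, Abcg1 higher and Mylip lower in LysM-DKO, beside 13.4% of all genes (7.76% higher and 5.64% lower). In 7 of 10 members the groups did not overlap (2 higher, 5 lower), beside 48.2% of all genes (25.6% higher, 22.6% lower). The median log2 fold change was -0.34, against 0.03 for all genes. Abcg1 was higher by 2.37 (edgeR adjusted p 0.00644, SE 0.369), and without ABCG1KO 1 by 2.23 (adjusted p 0.0651 with edgeR). Mylip was lower, with a log2 fold change of -1.24 (edgeR adjusted p 0.0273, SE 0.285). That call was lost without any 1 of LysM-DKO 2, LysM-DKO 3, ABCG1KO 1 or ABCG1KO 2, where the value was -1.15, -1.07, -1.47 and -0.98, with edgeR adjusted p from 0.0585 to 0.0977. It was also lost in the fit of both groups alone (edgeR adjusted p 0.0797) and without LysM-DKO 2 and 3 together (-0.72, 0.201).

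Arl4c lay at the edge of the threshold between the knockouts, with a log2 fold change of -0.85 (edgeR adjusted p 0.0501, SE 0.238), and was called without LysM-DKO 2 (-1.07, edgeR adjusted p 0.0327) or without ABCG1KO 2 (-1.11, 0.0289). It was also called under other scalings and count filters (edgeR adjusted p 0.0406 to 0.0482) and with DESeq2 (0.00599). Its order over libraries was complete: the WT libraries were lowest, the LysM-DKO libraries lay between 111 and 162 CPM, and the ABCG1KO libraries were highest. Mylip had the same order of groups. Both comparisons with WT use the same 3 WT libraries, so their values are given side by side and are not independent. Among the rest, Abca1 had a log2 fold change of -0.99 (95% interval -2.08 to 0.10, edgeR adjusted p 0.199), Apoe of -1.40 (0.225) and Nr1h2 of 0.31 (0.158).

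Whether the members move together was examined over the 6 WT and LysM-DKO libraries, since Abcg1 is deleted in the other 2. The 9 other members were correlated with Abcg1 on log2 CPM, with exact two-sided permutation tests over 720 orders and Benjamini-Hochberg adjustment over 9. Apoe had a Pearson r with Abcg1 of 0.79 (exact permutation p 0.0944, adjusted 0.434; Spearman rho 0.49, exact permutation p 0.356). Without the 2 libraries farthest from the median of Abcg1, LysM-DKO 1 and 3, this r was -0.18, so the relation rests on those libraries. Nr1h3 had an r of 0.68 (exact permutation p 0.125, adjusted 0.434) and a rho of 0.89 (exact permutation p 0.0333, adjusted 0.263), and r was 0.77 without those 2 libraries. Abca1 had an r of 0.55 (exact permutation p 0.271, adjusted 0.434; rho 0.49), which became -0.25 without them. None of the 9 relations passed the adjusted threshold.

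The other members gave r values of 0.66 for Nr1h2, 0.46 for Mylip (0.96 once the group means were subtracted), 0.24 for Srebf1, -0.30 for Arl4c, -0.50 for Abca7 and -0.60 for Smpdl3a. Thus 6 of 9 were positive, beside 58.2% of the 8451 genes with a mean of at least 10 CPM in these libraries. Over all 45 pairs of members, 24 had a positive r, and 26 did once the group means were subtracted. Libraries also differed as a whole: LysM-DKO 3 was the lowest of the 6 for Abcg1, Abca1, Apoe and Nr1h2, while LysM-DKO 1 was the highest for Abcg1, Nr1h3 and Mylip. LysM-DKO 1 is also the library with the male pattern in that group, and the part of sex in this was not tested.

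**Figure D4:**
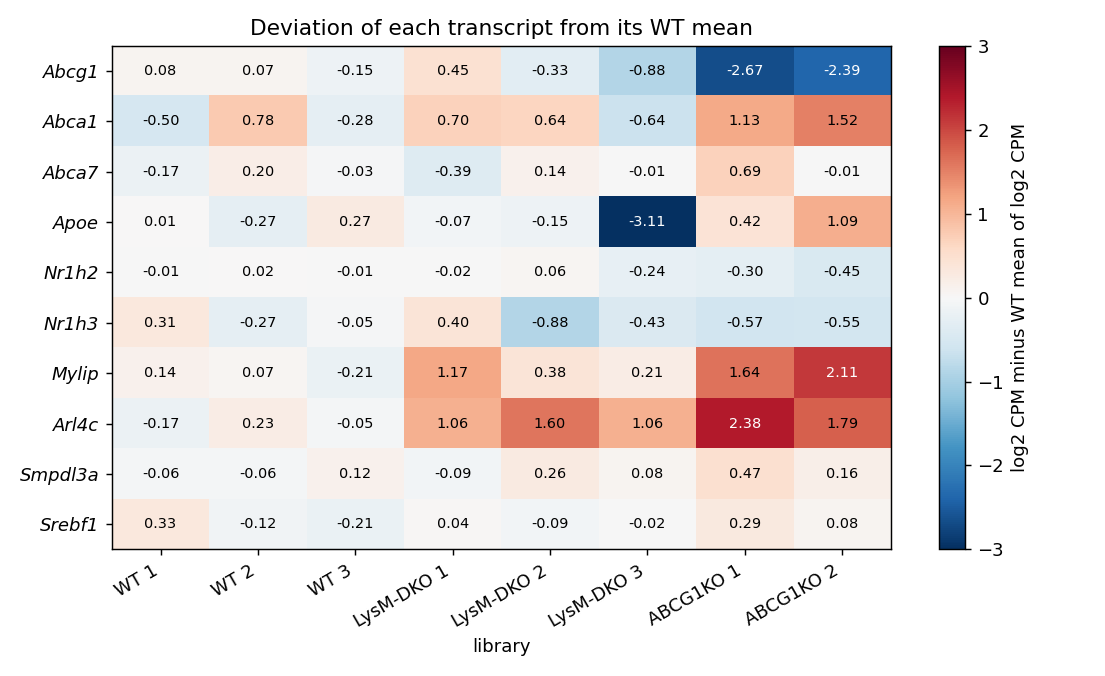
Deviation of log2 CPM from the WT mean for each transcript (rows) in each of the 8 libraries (columns), with the value in each cell. Abcg1 is at -2.67 and -2.39 in ABCG1KO, Mylip and Arl4c are above 0 in all 5 knockout libraries, and Apoe is at -3.11 in LysM-DKO 3 alone.

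The genes whose pattern was most like that of Abcg1 over those 6 libraries were Txndc15 (r 0.99), Galnt6 (0.98), Nab2 (0.98), Zfp637 (0.98) and Mast1 (0.97). An r of at least 0.9 was found for 83 genes, 0.982% of those compared. In ABCG1KO, Txndc15 was at 43.4 and 37.3 CPM, against 42.3 to 46.2 in WT. Nab2, a corepressor of EGR factors, was at 112 and 133 CPM there and at 78.9 to 96.4 CPM in WT. With 6 points the likeness is a description only.

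Other LXR targets were taken as a list of 14 genes outside the members, of which 12 could be tested (the sterol transporters Abcg5 and Abcg8 had too few counts). In ABCG1KO against WT, 4 rose and 1 fell, beside 7.21% of all genes higher and 8.83% lower. Their median on the log2 scale was 0.54, and that of all genes 0.01. Pltp, the phospholipid transfer protein that remodels high-density lipoprotein, was at 368, 528 and 529 CPM in WT and at 1063 and 1437 CPM in ABCG1KO (log2 fold change 1.40, SE 0.362, edgeR adjusted p 0.0358). Rnf145, a ubiquitin ligase that restrains sterol synthesis, rose from 65.9 to 132 CPM (1.00, edgeR adjusted p 0.0212, SE 0.223). Apoc1, an exchangeable apolipoprotein, had 1, 4 and 5 counts in WT and 486 and 983 counts in ABCG1KO (edgeR adjusted p 0.00136). With 0 to 8 counts in the WT and LysM-DKO libraries, Apoc1 passed the filter on low counts only through ABCG1KO. It could therefore only come out higher there, and its place among the 4 is no support for a rise. Mlxipl, which encodes the glucose-responsive factor ChREBP, had 5, 13 and 1 counts in WT and then 1459 and 414 (edgeR adjusted p 0.0218). Lpl, the lipoprotein lipase, fell from 7008 to 2328 CPM (-1.59, edgeR adjusted p 0.0418, SE 0.434) and is named after its value was seen. The count of 5 was 1 without any 1 of WT 1, WT 2 or ABCG1KO 1, and 3 without WT 3 or ABCG1KO 2.

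Among 9 partners and coregulators of LXR, 1 rose and 1 fell in ABCG1KO, a share near the 16.0% of all genes called. Rxra, the usual heterodimer partner, was at 151, 166 and 181 CPM in WT, at 237, 215 and 202 CPM in LysM-DKO, and reached 304 and 340 CPM in ABCG1KO. Both knockouts lay above WT, and the log2 fold change was 0.96 (edgeR adjusted p 0.00450, SE 0.144) in ABCG1KO and 0.39 (edgeR adjusted p 0.354) in LysM-DKO. Pparg, a lipid-activated receptor upstream of Nr1h3, was at 106, 74.2 and 91.4 CPM in WT and at 25.6 and 28.6 CPM in ABCG1KO (-1.74, edgeR adjusted p 0.0154, SE 0.350). That call was lost without either ABCG1KO library. For 6 enzymes that make or remove LXR ligands the median log2 fold change was -0.68 (all genes 0.01). The list mixes enzymes that make ligands with ones that remove them, and some had very few counts. Its median therefore gives no direction for the supply of ligand, here or in the other comparisons.

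Of 12 genes of cholesterol storage, release and transfer, 2 rose and 4 fell in ABCG1KO, beside 7.21% of all genes higher and 8.83% lower, with a median log2 fold change of -0.46 (all genes 0.01). Scarb1, the scavenger receptor that exchanges cholesterol with lipoproteins, fell by 0.89 on the log2 scale (edgeR adjusted p 0.0151), Soat1, which esterifies cholesterol, fell by 0.91 (0.0342) and Npc2, which carries cholesterol out of lysosomes, fell by 0.80 (0.0179). Cav1, the coat protein of caveolae, rose by 3.48 (edgeR adjusted p 0.0318, SE 0.847), from 6.68 to 74.6 CPM. The count of 6 called genes was 0 without ABCG1KO 1, 1 without WT 2, 2 without WT 1 or WT 3, and 3 without ABCG1KO 2 or LysM-DKO 2.

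The sterol synthesis and uptake genes under SREBP2, which cells lower when sterol is plentiful, were the most one-sided of the 5 lists. In ABCG1KO, 11 of 20 fell and 0 rose, beside 8.83% of all genes lower and 7.21% higher. A negative log2 fold change was found for 19 of 20, and the median was -1.13 (all genes 0.01). Fdps, which makes farnesyl diphosphate, went from 94.5 to 6.79 CPM (-3.80, edgeR adjusted p 0.00337, SE 0.517). Msmo1 fell from 161 to 44.2 CPM (-1.87, edgeR adjusted p 0.00346, SE 0.265), and Idi1 (-2.91) and Lss (-1.62) fell as well. Sequence shared with other genes was examined only for the members and Gapdh, so its part in these falls was not tested. The count of 11 was 5 without ABCG1KO 1 and 6 without ABCG1KO 2. This list was chosen with results of these libraries known, and is no independent evidence of its direction.

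In LysM-DKO against WT, edgeR called 0 genes in each of these 5 lists. At an unadjusted p under 0.05 there were 1 of 12 other LXR targets, 3 of 9 partners, 2 of 6 ligand enzymes, 2 of 12 storage genes and 9 of 20 SREBP2 genes, beside 11.7% of all genes. DESeq2 called 1, 0, 1, 2 and 0 in these lists and 295 of all 13821 genes. The medians were -0.36 for the other LXR targets, 0.39 for the partners, -0.50 for the ligand enzymes, 0.03 for the storage genes and -0.50 for the SREBP2 genes, beside 0.02 for all genes. In LysM-DKO against ABCG1KO, Pltp, Mlxipl and Rnf145 were lower. Apoc1 was called lower too, but it passed the filter only through ABCG1KO and could only come out that way. Rxra (log2 fold change -0.56, edgeR adjusted p 0.0392) and Gramd1a, a carrier of plasma membrane sterol (-1.08, edgeR adjusted p 0.0267), were also lower. Pparg was higher (1.49, edgeR adjusted p 0.0294), as were 8 of 20 SREBP2 genes, beside 7.76% of all genes higher and 5.64% lower.

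**Figure D5:**
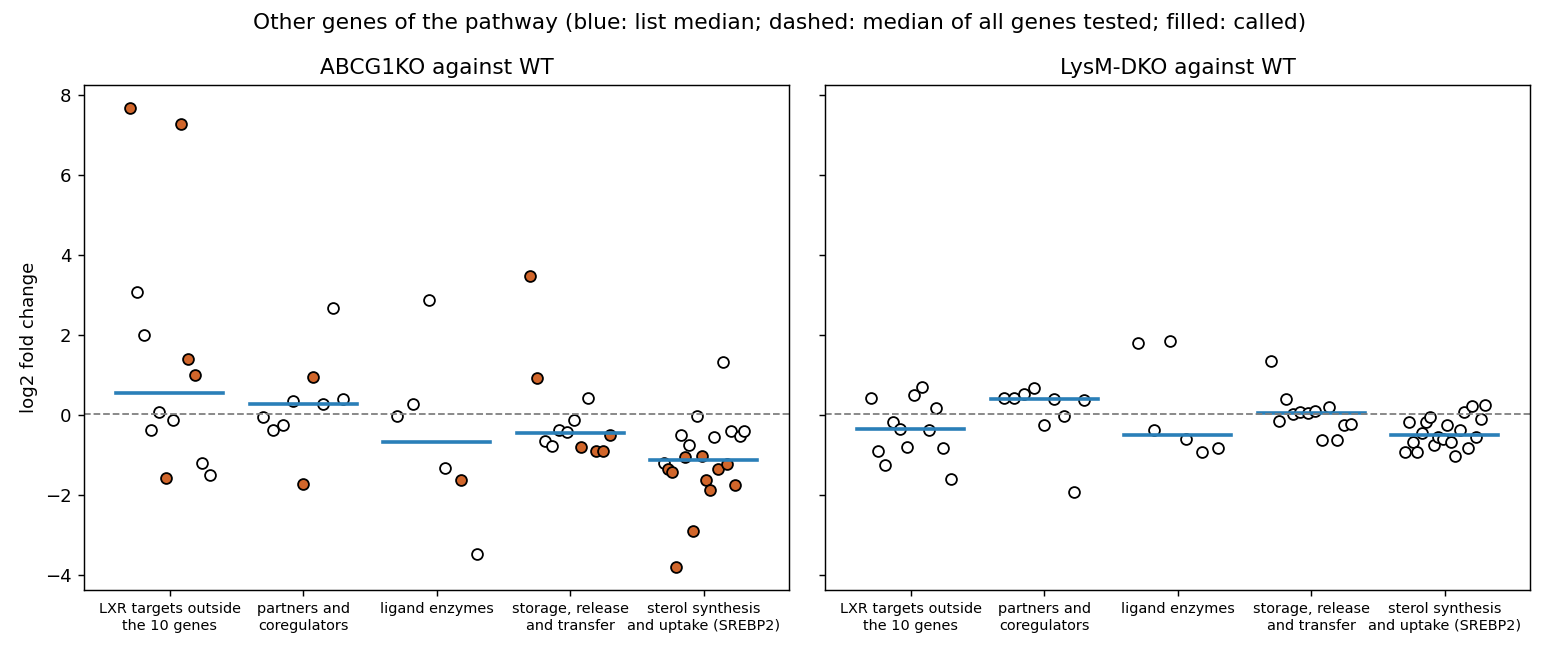
Fitted log2 fold change of each gene in 5 lists of the LXR and cholesterol pathway, in ABCG1KO against WT (left) and LysM-DKO against WT (right); filled points have an edgeR adjusted p under 0.05, blue lines are list medians and the dashed line is the median of all genes. The SREBP2 list lies below 0 in ABCG1KO for 19 of 20 genes, and no point is filled for LysM-DKO.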

How the data were processed

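RNA-seq of primary macrophages gave 1 table per library. The authors deposited whole-number, unnormalised counts for each gene symbol, with the 5 special lines of htseq-count at the end, which entered no library size or test. The submitters' processing notes list mm10, STAR 2.7.9a, TopHat, HTSeq 0.11.2, DESeq2 1.30.1 and limma without a role for each. The annotation and strand setting are not given in the sources used here.

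Counts were analysed with edgeR 4.0.16 in R 4.3.3 (filterByExpr, 13821 genes kept, TMM factors, robust quasi-likelihood fit of all 8 libraries with group as the only term, 5 residual degrees of freedom, biological coefficient of variation 36.1%). Calls needed an adjusted p (Benjamini-Hochberg, all genes) under 0.05. SE and 95% intervals of log2 fold changes come from that fit. A run on simulated counts checked its fold changes and their directions, but not the SE or the intervals. FPKM used union exon lengths of GENCODE M21. Replicates were not copies, as the chi-square per degree of freedom between them was 88.1 to 159.

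The 10 members and all gene lists were chosen with earlier results of these data known. All members are named, as are up to 4 called genes per list by adjusted p and the 5 genes most correlated with Abcg1. 1 gene of the lists is not reported here. Alternatives were other scalings and filters, DESeq2 1.42.0, the compared groups alone, a replicate block, each library left out and, added after seeing the data, the fit without LysM-DKO 2 and 3, which leaves knockout libraries with the male pattern.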

Additional observations from a re-analysis of the deposited data

Results flagged for a closer look

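Reads counted outside all genes made up 13.8% of the reads of ABCG1KO 1 and 10.2% of those of ABCG1KO 2, above the 4.26% to 6.07% of the WT and LysM-DKO libraries. Reads aligned to several loci made up 6.93% in ABCG1KO 1 and 6.74% in ABCG1KO 2, above 2.65% to 3.01% in the other 6. These lines of the files enter no comparison, and they are given because their level in ABCG1KO lay above that of every WT library. Their part in the calls of Abcg1, Mylip and Arl4c was not tested.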

How the results depend on the processing

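In ABCG1KO against WT, Abcg1, Mylip and Arl4c were called in every setting run, and 3 members were called without any 1 library (range 3 to 3). The median log2 fold change of the members there was 0.58 with library size only, a scaling that moved the median of all genes to 0.25, and 0.10 (without ABCG1KO 1) to 0.43 without any 1 library. In LysM-DKO against WT, 0 members were called without any 1 library (0 to 0) and 1 with DESeq2, and the median of the members was 0.10 with library size only (all genes 0.17), 0.19 without LysM-DKO 2 and 3, and -0.08 to 0.06 without any 1 library. In that comparison library size only turned Abca7 (0.080), Nr1h2 (0.091) and Srebf1 (0.11), and leaving out LysM-DKO 2 and 3 turned Abcg1 (0.44), Nr1h3 (0.37), Smpdl3a (-0.095) and Srebf1 (0.0089). Without any 1 library the values there ran from -0.60 to 0.11 for Abcg1, -0.21 to 0.045 for Abca7, -0.14 to 0.023 for Nr1h2, -0.68 to 0.0048 for Nr1h3, -0.019 to 0.15 for Smpdl3a and -0.14 to 0.14 for Srebf1. Abca7 ran from -0.021 to 0.68 in ABCG1KO against WT, and Nr1h3 from -0.10 to 0.58 in LysM-DKO against ABCG1KO. No member that turned was called in these fits. In LysM-DKO against ABCG1KO, 1 member was called in the fit of both groups alone, 1 with the replicate block and 1 without LysM-DKO 2 and 3, 3 with DESeq2, and 0 (without ABCG1KO 1) to 2 without any 1 library, where the median ranged from -0.57 to -0.10. Without LysM-DKO 1 and 3, the correlation with Abcg1 turned for Abca1 (-0.25), Apoe (-0.18), Nr1h2 (-0.67) and Mylip (-0.32). The cause of these shifts was not tested.

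Replicate numbers did not pair the libraries: deviations of same-numbered WT and LysM-DKO libraries correlated at 0.055, 0.39 and 0.015. The replicate block left 1456 genes called in ABCG1KO against WT, against 2216 without it and 3239 with DESeq2. Library size only gave 2074 higher and 856 lower in place of 996 and 1220. For LysM-DKO against WT the count was 5, 0 to 8 without any 1 library and 295 with DESeq2. For LysM-DKO against ABCG1KO it was 1853, 948 with both groups alone, 1024 with the block and 2982 with DESeq2. Without ABCG1KO 1, 853 and 561 genes were called against WT and LysM-DKO.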
